A study of Mus musculus with 4 samples.

Results

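The 40 genes described here encode the glutamate receptors of the postsynaptic membrane and the scaffold proteins that hold them in place. They were taken from the deposited table by gene symbol alone, without use of any measured value. All 40 were found among the 25259 genes of the table. The 26 receptor genes comprised 4 AMPA subunits (Gria1 to Gria4), 5 kainate subunits (Grik1 to Grik5), 7 NMDA subunits (Grin1, Grin2a to Grin2d, Grin3a and Grin3b), 2 delta subunits and 8 metabotropic receptors. The 14 scaffold genes comprised 4 of the PSD-95 family (Dlg1 to Dlg4), 4 of the SAPAP family (Dlgap1 to Dlgap4), 3 Shank genes and 3 Homer genes.

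Their mRNA was measured in the dorsal striatum of C57BL/6 mice at 8 weeks of age, either wild-type or Foxp2hum/hum, which denotes homozygotes for a humanised allele of the forkhead transcription factor gene Foxp2. Tissue of the dorsomedial striatum (DMS) or the dorsolateral striatum (DLS) was cut out by laser capture, and 15 ng of total RNA per sample went into a library. There were 11 libraries of wild-type DMS, 11 of wild-type DLS, 12 of Foxp2hum/hum DMS and 12 of Foxp2hum/hum DLS. The labels tie no library to an animal or to 1 of the 3 flow cells, and do not say how many founders or litters stand behind the humanised line, so p-values measure the spread between libraries. If a mouse gave a library for each region, those libraries are not independent.

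Glutamate released by cortical and thalamic axons reaches striatal projection neurons, which are called medium spiny neurons. AMPA receptors carry most of the fast current, NMDA receptors admit calcium when glutamate and depolarisation coincide, and kainate receptors act on both sides of the synapse. Metabotropic receptors signal through G proteins: group I, which includes Grm5, mobilises calcium, while groups II and III restrain transmitter release or adenylyl cyclase. PSD-95 proteins bind NMDA receptors and, through auxiliary subunits, AMPA receptors. SAPAP proteins link them to Shank, and Shank is joined by Homer to group I metabotropic receptors. Loss of Dlgap3 or Shank3 in mice is known for excessive grooming that involves the striatum.

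The promoters of 3 genes that carry the regional difference are shown: Grik2 and Grik5, kainate subunits that can form 1 channel, and Dlgap3, the scaffold with the largest called difference. Each run is the 250 bases before the annotated start, 5′ to 3′ on the gene's strand, from RefSeq on GRCm38.p6. Capitals mark matches to either of 2 sets of letters on either strand, the forkhead letters TGTTTAC or TGTTTGC and the GC box letters GGGCGG, and no match overlapped another.
Grik2 (chr10:49788755-49789004, minus strand): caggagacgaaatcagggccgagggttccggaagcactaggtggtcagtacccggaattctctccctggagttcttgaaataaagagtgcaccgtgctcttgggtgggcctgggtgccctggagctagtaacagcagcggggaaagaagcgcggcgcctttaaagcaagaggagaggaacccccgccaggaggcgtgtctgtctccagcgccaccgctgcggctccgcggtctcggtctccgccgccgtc
Grik5 (chr7:25072370-25072619, minus strand): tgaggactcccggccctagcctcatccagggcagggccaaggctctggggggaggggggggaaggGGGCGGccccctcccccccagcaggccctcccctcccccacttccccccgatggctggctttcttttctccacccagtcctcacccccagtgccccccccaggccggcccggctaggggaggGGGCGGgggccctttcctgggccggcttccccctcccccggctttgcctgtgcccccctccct
Dlgap3 (chr4:127172630-127172879, plus strand): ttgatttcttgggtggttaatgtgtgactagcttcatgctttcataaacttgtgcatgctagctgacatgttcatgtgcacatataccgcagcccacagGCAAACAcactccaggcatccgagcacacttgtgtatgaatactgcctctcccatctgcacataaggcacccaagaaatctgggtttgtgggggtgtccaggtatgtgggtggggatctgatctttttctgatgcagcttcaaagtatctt
The sequences differed in composition: G and C made up 62.8% of the Grik2 run, 75.2% of the Grik5 run and 46.8% of the Dlgap3 run, against a median of 52% over all genes. Grik2 held neither set of letters. Grik5 held the GC box letters at 63 and 185 bases before the start. Dlgap3 held the forkhead letters once, in reverse orientation at 151 bases before the start. Of the 26 members with a promoter in the RefSeq table, 4 (15.4%) held the forkhead letters (Dlg3, Dlgap1, Dlgap3 and Gria4), against 8.22% of 27025 genes, and 15 (57.7%) held the GC box letters, against 35.4%. These matches describe letters in a window of 250 bases and are not binding sites.

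Recovered totals ran from 16.79 to 41.01 M reads per library, with a median of 23.22 M. Mitochondrially encoded genes took a mean of 20.2% of this total in wild-type DMS, 22.4% in Foxp2hum/hum DMS, 22.7% in wild-type DLS and 24.8% in Foxp2hum/hum DLS. The labelled tissue showed its defining markers: the 10 medium spiny neuron markers found in the table summed to between 91905 and 178732 normalised reads in every library, against 49.7 to 1173 for 6 markers of cortical excitatory neurons. Values here are normalised reads, which are read counts divided by a size factor for each library. Reads seem to have been counted over introns and regardless of strand: 306 of 306 genes that lie within an intron of another gene and have a mean of at least 500 never exceeded their host, and 215 of them lie on the opposite strand. The members are long, with a median span of 217 kb against 16.5 kb over the genes tested, and their values can therefore hold reads from introns and from overlapping genes.

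The level of the members varied widely. Levels per kb of exon still include any reads from introns and overlapping genes, so their order between genes may not be that of the mRNA. Per kb of exon, the highest was Dlg4, which encodes PSD-95 itself, with group means from 2603 to 3424 normalised reads. Dlgap3 followed at 1545 to 2713. Among the receptors, Grik5 (676 to 959), Gria1 (725 to 819) and Gria2 (699 to 728) led, and their ranges over the 4 groups overlapped. Gria1 and Gria2 form the usual AMPA receptor of projection neurons, and Grik5 is a kainate subunit that needs a partner such as Grik2 to form a channel. Grin1, the subunit present in every NMDA receptor, stood at 307 to 478 and Grm5 at 391 to 408.

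Within the families the lowest members per kb of exon were Gria4 among AMPA subunits (104 to 131, except in Foxp2hum/hum DMS, where Gria3 was at 126 and Gria4 at 127), Grik1 among kainate subunits (6.63 to 8.81) and Grin3a among NMDA subunits (8.44 to 11.4). The delta subunit Grid1 stood at 153 to 186. Of the metabotropic receptors, group II was led by Grm3 (387 to 423) over Grm2 (3.8 to 4.11), and group III by Grm4 (196 to 227). Among scaffolds, Shank3 (424 to 588) exceeded Shank1 (59.2 to 80.4), Homer1 (293 to 395) exceeded Homer2 (11.4 to 15.5), Dlgap1 was the lowest SAPAP gene (93 to 108), and Dlg3 (248 to 320) was the lowest of its family in every group except wild-type DLS, where Dlg1 (288 to 296) was. Grm6, the receptor of retinal bipolar cells, had a mean of 0.79 normalised reads and was listed at 0 in 8 of 11 wild-type DMS, 6 of 11 wild-type DLS, 5 of 12 Foxp2hum/hum DMS and 7 of 12 Foxp2hum/hum DLS libraries. It was the only member under the mean of 10 required for testing, which left 39.

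**Figure D1:**
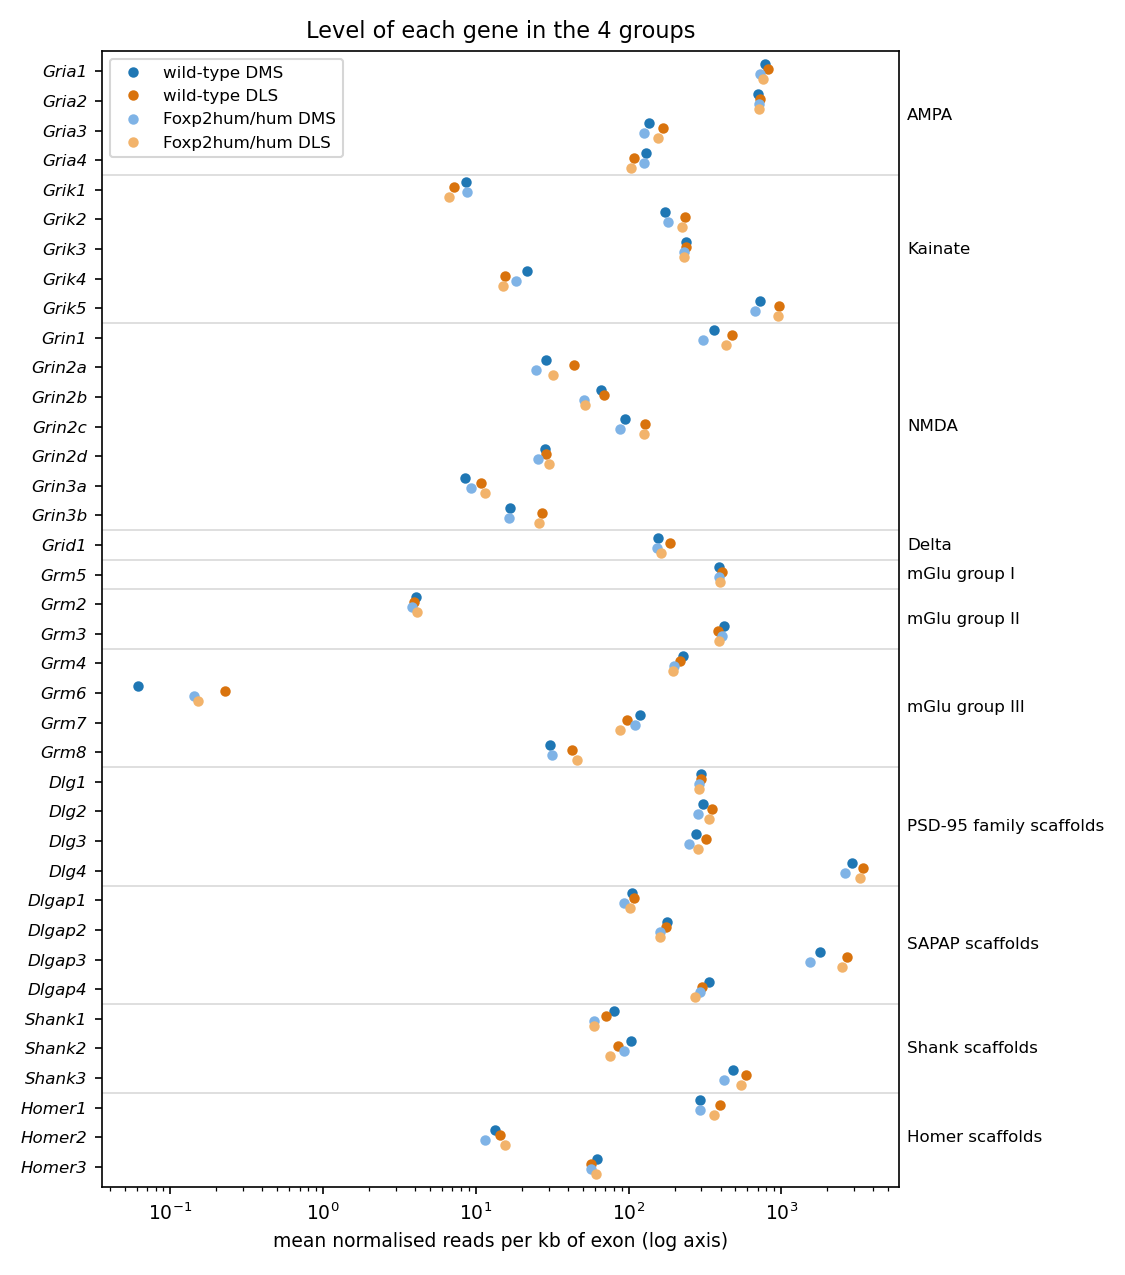
Mean normalised reads per kb of exon (log axis) for 38 of the genes, with 1 point for each of the 4 groups of 11 or 12 libraries. Any reads from introns and overlapping genes are included. Dlg4 and Dlgap3 lie highest and Grm6 lowest. The groups of a gene lie close together compared with the full span of levels over the genes, while genes of similar level overlap.

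The first comparison asked how the subdivisions differ in each genotype. A gene was called where its adjusted p was under 0.05, by limma with Benjamini-Hochberg adjustment over 19561 genes. In wild-type mice 9 of 39 members were lower in DMS than in DLS and 0 higher, where 17.3% of all genes tested were called, 8.72% lower and 8.54% higher. In Foxp2hum/hum mice 9 were lower and 2 higher, where 18.1% were called, 8.82% lower and 9.33% higher. The share of members called lower was 23.1% in each genotype. Gria3, Grik2, Grik5, Grin1, Grin2c, Grin3b and Dlgap3 were among the 8 lower in both, Homer1 was called in wild-type alone, and Gria4, Grm7 and Dlg4 in Foxp2hum/hum alone. On the log2 scale the members had a median difference of -0.085 among wild-type and -0.10 among Foxp2hum/hum libraries, against 0.0067 and 0.018 over all genes tested. Called or not, 26 members in wild-type and 25 in Foxp2hum/hum had a difference below 0, where 49% and 47.4% of all genes did. For no member did the groups stand fully apart, as they did for 1.95% of genes in wild-type and 2.2% in Foxp2hum/hum.

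**Figure D2:**
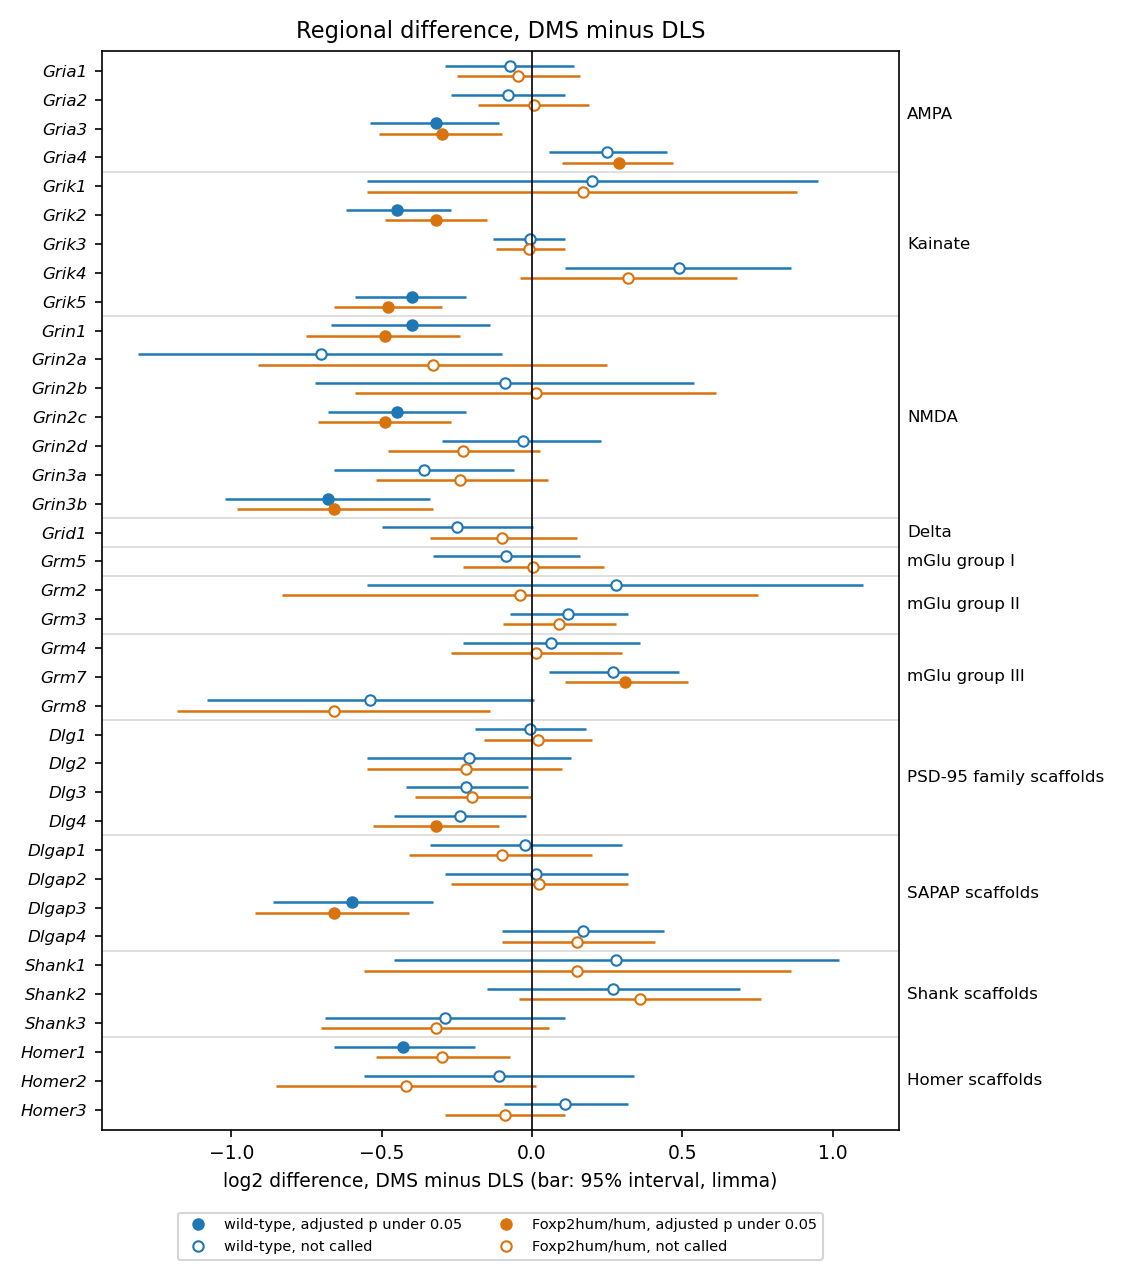
Difference between DMS and DLS on the log2 scale for 37 genes, in wild-type (blue) and Foxp2hum/hum (orange) libraries, with 95% intervals from limma; filled points passed an adjusted p of 0.05. Filled points to the left are Gria3, Grik2, Grik5, Grin1, Grin2c, Grin3b, Dlgap3, Homer1 and Dlg4, and those to the right are Gria4 and Grm7 in Foxp2hum/hum.

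Markers of the projection neurons themselves moved in the same direction. Of 10 medium spiny neuron markers, 7 were lower in DMS in each genotype, among them Drd1a (-0.35 and -0.30 on the log2 scale) and Adora2a (-0.71 and -0.68). The summed level of the list did not overlap between regions, at 98769 to 136500 against 143866 to 178732 in wild-type and 91905 to 122975 against 142353 to 169595 in Foxp2hum/hum. No marker of this list had a median of 0 in any group. In tissue samples fewer cells of a type and less RNA per cell cannot be told apart. When the mean log2 level of these markers entered the fit, a choice made after seeing the data, 17 members were higher and 2 lower in wild-type and 18 higher and 2 lower in Foxp2hum/hum, the 2 lower being Grin3b and Grm8. In that fit 33.7% of all genes tested were called in wild-type and 35.5% in Foxp2hum/hum, of which 46.2% and 45.4% were lower. Since the summed markers separate the regions fully, the members' regional difference and that of these markers cannot be told apart. Other lists also moved: 6 of 8 choroid plexus and ependyma markers were higher in DMS in each genotype (summed level 373 to 10785 against 177 to 388 in wild-type, 614 to 7085 against 151 to 305 in Foxp2hum/hum, with 4 and 3 of 8 markers at a median of 0 in DLS), as were 5 of 6 neuroblast markers (3692 to 6691 against 3362 to 3933, and 4047 to 6634 against 2787 to 4273). Of 7 interneuron markers 3 were lower in each genotype, and 1 higher in wild-type. Of 6 astrocyte markers 2 were higher in each genotype, of 8 oligodendrocyte markers 2 were higher in wild-type (0 in Foxp2hum/hum), while 0 of 6 cortical markers were called. How much these cells contribute to the members' values was tested only through the covariates given here and in the closing section.

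Scaling mattered for how many members were called. Under quantile normalisation 6 were lower and 2 higher in wild-type, and 7 lower and 2 higher in Foxp2hum/hum. Of all genes tested 16.6% and 17.4% were then called, 49.8% and 49.5% of these lower. Scaled to the total without mitochondrial genes, 5 were lower and 0 higher in wild-type, and 4 lower and 2 higher in Foxp2hum/hum. Of 19561 genes 808 and 664 were then called lower, against 1706 and 1725 with the deposited size factors. With the total without mitochondrial genes the median of all genes was 0.14 in Foxp2hum/hum, against 0.018 with the deposited size factors. The members' median lay 0.11 below that of all genes (members minus all genes -0.11, against -0.12 with the deposited size factors).

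Of the kainate receptor genes, Grik2 and Grik5 were lower in DMS in both genotypes. Grik2, a pore-forming subunit (chromosome 10, 48819266 to 49508572 on mm9, minus strand), ran from 1012 through a median of 1370 to 1884 normalised reads in wild-type DMS and from 1547 through 1877 to 2352 in DLS. Foxp2hum/hum libraries held 1196 through 1441 to 1749 in DMS and 1495 through 1862 to 2315 in DLS. Of 11 wild-type DMS libraries, 8 lay below every DLS library, and all 12 Foxp2hum/hum DMS libraries lay below the DLS median. On the log2 scale Grik2 differed by -0.45 ± 0.087 (SE, adjusted p = 9.89e-05) in wild-type and -0.32 ± 0.083 (adjusted p = 0.00344) in Foxp2hum/hum, the latter lost with the total without mitochondrial genes (-0.196, adjusted p = 0.19).

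Grik5 (chromosome 7, 25794872 to 25857388, minus strand) ran from 2249 through 2805 to 3535 in wild-type DMS and from 2824 through 3573 to 4499 in DLS. With the humanised allele it ran from 2145 through 2574 to 2919 in DMS, the narrower group, and from 2788 through 3408 to 4900 in DLS. There 10 of 12 DMS libraries lay below every DLS library. Grik5 differed by -0.40 ± 0.092 on the log2 scale (adjusted p = 0.000901) in wild-type and -0.48 ± 0.088 (adjusted p = 3.92e-05) in Foxp2hum/hum. With the medium spiny neuron markers in the fit, Grik2 and Grik5 stayed on the lower side in each genotype without passing: Grik2 at -0.143 (adjusted p = 0.462) and -0.041 (0.833), Grik5 at -0.051 (0.821) and -0.154 (0.401).

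The other kainate subunits did not follow them. Grik3 differed between regions by -0.0055 in wild-type (95% interval -0.13 to 0.11) and -0.0088 in Foxp2hum/hum (-0.12 to 0.11), the tightest intervals of the 39. An overlapping gene, Ftl2, amounts to 61.96% of the Grik3 value. Grik4 ran from 88.4 through 121 to 176 in wild-type DMS, from 45.1 through 88.4 to 132 in DLS, and from 59.2 through 110 to 141 and from 42.6 through 91.5 to 135 in Foxp2hum/hum. It was higher in DMS averaged over the genotypes (log2 0.40 ± 0.13, adjusted p = 0.0129), a call lost with quantile normalisation (adjusted p = 0.0546), the Ttr covariate (0.0682) or the mitochondrial share as covariate (0.0621). Grik1 held 2.65 to 67 normalised reads per library, and its intervals spanned -0.55 to 0.95 in wild-type.

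**Figure D3:**
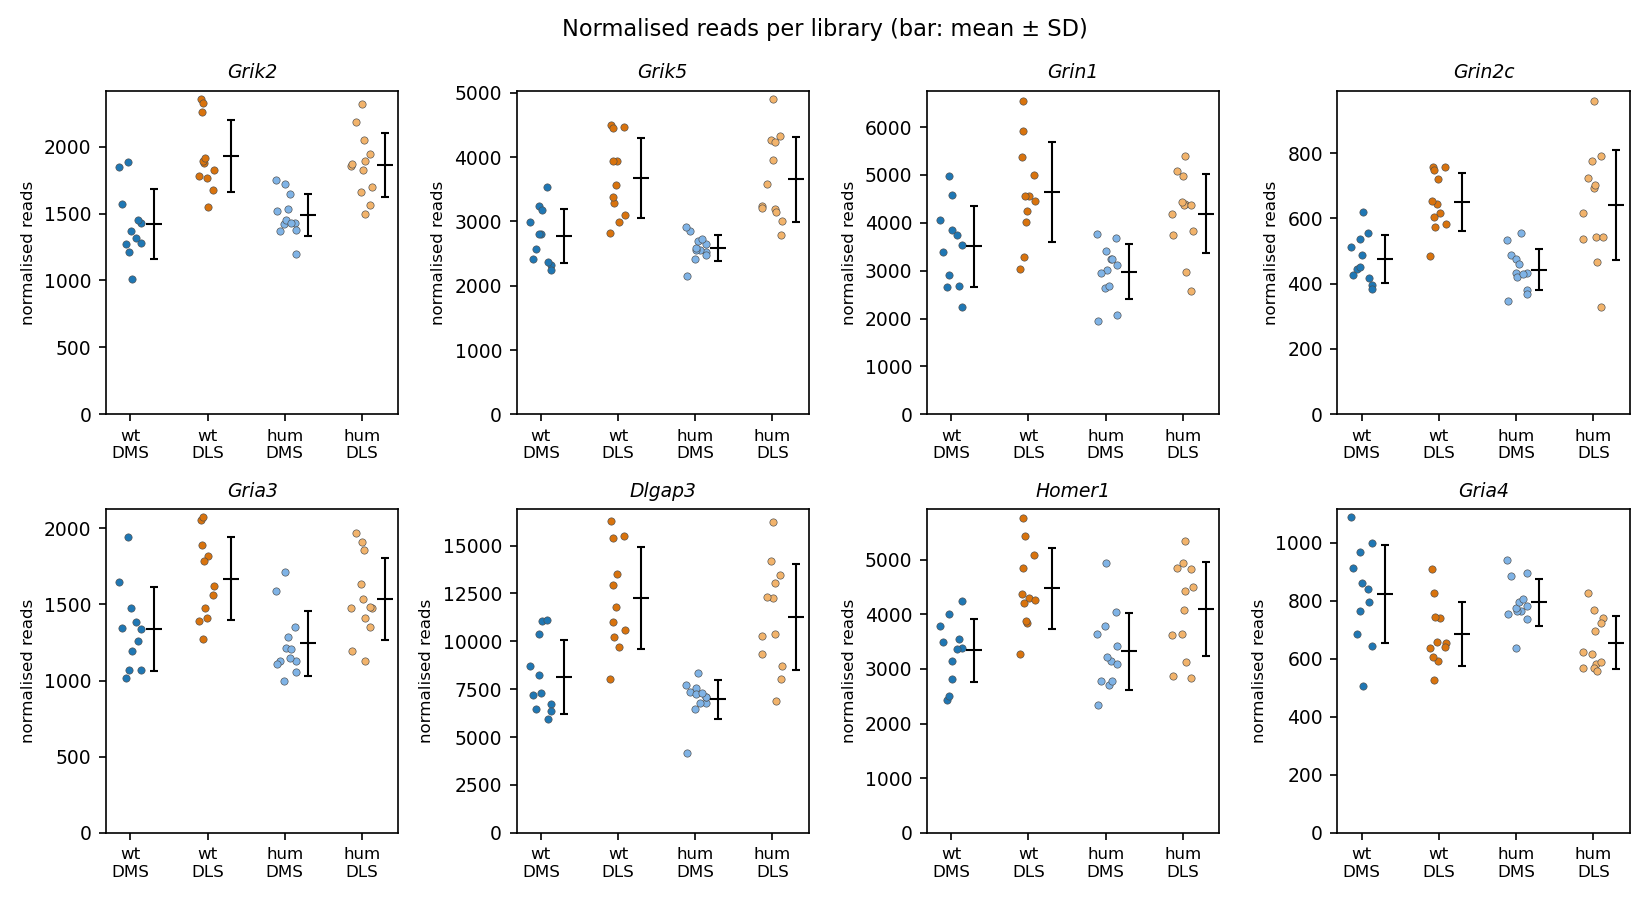
Normalised reads in each library for 8 members, with the mean and SD of each group of 11 or 12 libraries; each axis starts at 0. Grik2, Grik5, Grin1, Grin2c, Gria3, Dlgap3 and Homer1 lie lower in DMS than in DLS with overlap, and Gria4 lies higher.

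NMDA subunits lay below 0 on the log2 scale in all 7 cases in wild-type and 6 of 7 in Foxp2hum/hum, with 3 called in each. Of all genes tested, 49% and 47.4% lay below 0, and 8.72% and 8.82% were called lower. Grin1 (chromosome 2, 25146701 to 25174707, minus strand) ran from 2250 through 3544 to 4985 in wild-type DMS and from 3036 through 4552 to 6536 in DLS. In Foxp2hum/hum it ran from 1950 through 3066 to 3761 and from 2579 through 4376 to 5391, with all 12 DMS libraries below the DLS median. Its log2 difference was -0.40 ± 0.13 (adjusted p = 0.0267) and -0.49 ± 0.13 (adjusted p = 0.00351). The wild-type call was lost without any 1 of libraries 77, 89, 34, 50 or 65 (adjusted p 0.0536 to 0.0663), under quantile normalisation (0.119), with the total without mitochondrial genes (0.145) and with Ttr, a choroid plexus gene, as covariate (0.0835). The Foxp2hum/hum call was lost with the latter scaling and covariate (0.0889 and 0.0513). The antisense gene E130003G02Rik, which overlaps it, amounts to 70.98% of its value and was itself lower (-0.39 and -0.49), so the 2 genes were not measured apart.

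Grin2c, the subunit known from cerebellar granule cells and astrocytes (chromosome 11, 115110483 to 115128557, minus strand), ran from 384 through 450 to 618 in wild-type DMS and from 486 through 645 to 758 in DLS. The Foxp2hum/hum libraries ran from 347 through 432 to 554 in DMS and from 329 through 654 to 960 in DLS. One DLS library, 61, was the lowest of all 24. The log2 differences were -0.45 ± 0.12 (adjusted p = 0.00338) and -0.49 ± 0.11 (adjusted p = 0.000735), and both calls were lost with the total without mitochondrial genes (adjusted p = 0.0609 and 0.0626).

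Grin3b, a glycine-binding subunit, was the NMDA gene with the largest called difference, at 54.9 ± 13.3 against 89.1 ± 23.6 in wild-type (SD, n = 11 each) and 54.8 ± 18.3 against 85.1 ± 19.2 in Foxp2hum/hum (n = 12 each). The log2 differences were -0.68 ± 0.17 (adjusted p = 0.00264) and -0.66 ± 0.16 (adjusted p = 0.00233, and 0.128 with the Ttr covariate). Its value is, however, small beside that of ORF61, an overlapping gene on the opposite strand that amounts to 1729% of it. ORF61 differed by -0.15 in each genotype, which was called only in the average (adjusted p = 0.0261). How many of the reads come from Grin3b cannot be told apart. Grin3a was lower when averaged over the genotypes (-0.30 ± 0.10, adjusted p = 0.0229), and not with the total without mitochondrial genes (0.155) or the Ttr covariate (0.292). Gm12459, which overlaps it, amounts to 26.23% of its value and was not called.

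Grin2a and Grin2b, the usual partners of Grin1 in forebrain, varied widely within groups, and neither was called. Grin2a ran from 60.3 through 107 to 508 in wild-type DMS and from 90.2 through 197 to 480 in DLS, and Grin2b from 214 through 400 to 1543 and from 167 through 447 to 1234. With the humanised allele Grin2a ran from 63.5 through 128 to 265 in DMS and from 68.3 through 155 to 381 in DLS. Within groups the coefficient of variation averaged 58.3% for Grin2a and 59.6% for Grin2b, against a median of 21.2% over the members and 23.9% over all genes tested. The regional difference was -0.70 in wild-type for Grin2a (95% interval -1.31 to -0.10, adjusted p = 0.104) and -0.089 for Grin2b (-0.72 to 0.54). In Foxp2hum/hum it was -0.33 (-0.91 to 0.25) and 0.012 (-0.59 to 0.61). Averaged over the genotypes, Grin2a gave -0.514 (limma adjusted p = 0.0525) and Grin2b -0.039 (0.914). That Grin2a average passed under quantile normalisation, with array weights and in 14 of the fits without 1 library. With the medium spiny neuron markers in the fit both were called higher in Foxp2hum/hum. Gm14329, which overlaps Grin2b, amounts to 20.52% of its value.

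AMPA subunits split. Gria3 (chromosome X, 38754031 to 39031778) ran from 1014 through 1341 to 1946 in wild-type DMS and from 1270 through 1622 to 2073 in DLS. Foxp2hum/hum libraries ran from 999 through 1178 to 1712 and from 1127 through 1481 to 1971. It was lower in DMS by -0.32 ± 0.11 (adjusted p = 0.0253) and -0.30 ± 0.10 (adjusted p = 0.0285) on the log2 scale. The wild-type call was lost without any 1 of libraries 70, 89, 34, 50 or 56 (0.0521 to 0.0577), and the Foxp2hum/hum call without 74, 83, 94, 4 or 67 (0.0508 to 0.0604). Quantile normalisation (0.0866 and 0.118) and the total without mitochondrial genes (0.185 and 0.364) also ended both calls.

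Gria4, a subunit with fast kinetics, was on the higher side in DMS. It ran from 506 through 839 to 1087 in wild-type DMS and from 525 through 653 to 909 in DLS, and from 636 through 780 to 940 and from 558 through 620 to 825 in Foxp2hum/hum. All 12 Foxp2hum/hum DMS libraries lay above the DLS median. Gria4 differed by 0.29 ± 0.094 on the log2 scale there (adjusted p = 0.0249) and 0.25 ± 0.10 in wild-type (adjusted p = 0.0652), and with Ttr as covariate the former was 0.071 (adjusted p = 0.754). The abundant subunits Gria1 and Gria2 gave -0.072 and -0.081 in wild-type and -0.047 and 0.0054 in Foxp2hum/hum, with all 4 intervals inside -0.29 to 0.19.

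Metabotropic receptors gave calls on both sides. Grm5, a group I receptor, differed on the log2 scale by -0.085 (95% interval -0.33 to 0.16) and 0.0045 (-0.23 to 0.24). Grm7, a presynaptic group III receptor, ran from 530 through 698 to 1111 in wild-type DMS against 479 through 561 to 817 in DLS, and from 532 through 612 to 838 against 379 through 514 to 640 in Foxp2hum/hum. It was higher in DMS in Foxp2hum/hum by 0.31 ± 0.10 (adjusted p = 0.0257), a call lost without library 22, 80 or 84 (0.0549 to 0.0584) or with Ttr (0.188) or the mitochondrial share (0.0508) as covariate, and 0.27 ± 0.11 in wild-type (adjusted p = 0.0743). Grm8, also of group III, was lower averaged over the genotypes (-0.60 ± 0.19, adjusted p = 0.0108, and 0.662 with the Ttr covariate). Its groups were wide, at 123 to 492 in wild-type DMS and 191 to 625 in DLS. Neither group II receptor nor Grm4 was called.

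Among scaffolds, Dlgap3 stood out in size. Dlgap3 (chromosome 4, 126846448 to 126914266) ran from 5934 through 7316 to 11116 in wild-type DMS and from 8024 through 11794 to 16303 in DLS. In Foxp2hum/hum the range was 4165 through 7166 to 8352 in DMS and 6903 through 11336 to 16219 in DLS, so that 10 of 12 DLS libraries exceeded every DMS library. Dlgap3 differed on the log2 scale by -0.60 ± 0.13 (adjusted p = 0.00067, 1.51-fold lower) and -0.66 ± 0.13 (adjusted p = 7.02e-05, 1.59-fold lower). With the medium spiny neuron markers in the fit it was -0.098 (adjusted p = 0.759) and -0.208 (adjusted p = 0.438). Its relatives were not called: Dlgap1 gave -0.022 and -0.10, Dlgap2 0.014 and 0.024, and Dlgap4 0.17 and 0.15. Gm3160, which overlaps Dlgap2, amounts to 14.46% of its value.

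Dlg4 ran from 10365 through 13382 to 17670 in wild-type DMS and from 12434 through 15478 to 19534 in DLS, and from 7655 through 12360 to 14046 and from 9821 through 15491 to 21302 in Foxp2hum/hum. It was lower in DMS in Foxp2hum/hum (-0.32 ± 0.10, adjusted p = 0.0256), and -0.24 ± 0.11 in wild-type was not called (adjusted p = 0.134). The call was lost without library 74, 94 or 64 (0.0515 to 0.0645) with the total without mitochondrial genes (0.362), with the Ttr covariate (0.111) and under quantile normalisation, where the difference was -0.076 (adjusted p = 0.744). Dlg3 was lower only in the average over genotypes (-0.21 ± 0.07, adjusted p = 0.0184), a call that quantile normalisation (0.125), the total without mitochondrial genes (0.353) and the Ttr covariate (0.0578) each ended. Dlg1 gave -0.0059 and 0.019.

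Homer1, whose long forms tie group I receptors to Shank and whose short form is induced by activity, ran from 2435 through 3386 to 4244 in wild-type DMS and from 3271 through 4295 to 5757 in DLS. Foxp2hum/hum libraries ran from 2345 through 3185 to 4938 and from 2828 through 4261 to 5348. All 11 wild-type DMS libraries lay below the DLS median. Homer1 differed on the log2 scale by -0.43 ± 0.12 (adjusted p = 0.00647) in wild-type and -0.30 ± 0.11 (adjusted p = 0.0567) in Foxp2hum/hum. The values are summed over the forms. The wild-type call was lost under quantile normalisation (adjusted p = 0.0511) and with the total without mitochondrial genes (0.101). No Shank gene, and neither Homer2 nor Homer3, was called; Shank2 gave 0.27 and 0.36, Shank3 -0.29 and -0.32, and Shank1 0.28 and 0.15 with a 95% interval of -0.46 to 1.02 in wild-type. Ddx49, which overlaps Homer3, amounts to 193.2% of its value.

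Averaged over the genotypes, 13 members were lower and 3 higher, where 31.8% of all genes were called, 15.3% lower and 16.5% higher. In this average 26 of 39 were below 0, against 48% of all genes. The 4 members called in this comparison alone were Grik4, Grin3a, Grm8 and Dlg3. The split was 12 lower and 5 higher under quantile normalisation and 9 lower and 4 higher with the total without mitochondrial genes. Of all genes 31.5% and 28.4% were then called, 50.2% and 25.4% of these lower. The sign of the regional difference was the same in both genotypes for 32 of 39 members (82.1%), against 80.6% of all genes tested. A test of the difference itself, the interaction of genotype and region, called 0 members and 0 of 19561 genes by limma, edgeR and DESeq2, with 0 members at an unadjusted p under 0.05 by each of them, of 321 genes by limma. The members closest to a call were Homer3 (-0.20 ± 0.14), Grin2d (-0.20 ± 0.18) and Grik2 (0.13 ± 0.12), each with a limma adjusted p of 1. The calls made in 1 genotype alone are therefore not shown to differ between genotypes.

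Ratios of related members within a library hardly depend on how libraries are scaled, and 7 such ratios were compared in 4 ways, 28 comparisons in all, by two-sided permutation tests with 100000 resamples. The 6 ratios given here had 0 of 24 comparisons with an adjusted p under 0.05. The ratio of Grik2 to Grik5 differed between regions by -0.045 in wild-type (permutation p = 0.716, adjusted p = 0.852) and 0.16 in Foxp2hum/hum (permutation p = 0.116, adjusted p = 0.385).

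The next ratios came nearer to the threshold. Grin2a to Grin2b, whose balance shifts as forebrain matures, was on the lower side in wild-type DMS by 0.61 on the log2 scale (difference -0.61, permutation adjusted p = 0.0646). That difference passed without library 43, 50 or 93 (0.0454, 0.048 and 0.0309). In Foxp2hum/hum the ratio differed by -0.34 (permutation p = 0.0381, adjusted p = 0.178). Shank1 to Shank3 was on the higher side in DMS by 0.57 in wild-type (permutation adjusted p = 0.104) and 0.47 in Foxp2hum/hum (0.0646). It passed in wild-type without library 70 (0.00635) or 50 (0.048), and in Foxp2hum/hum without 94 (0.0101), 64 (0.0382), 46 (0.0403), 4 (0.0456) or 50 (0.048, through the adjustment alone). The ratios of Gria1 to Gria2, Dlg3 to Dlg4 and Homer1 to Homer2 gave regional differences between -0.32 and 0.12, none with an adjusted p under 0.385.

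**Figure D4:**
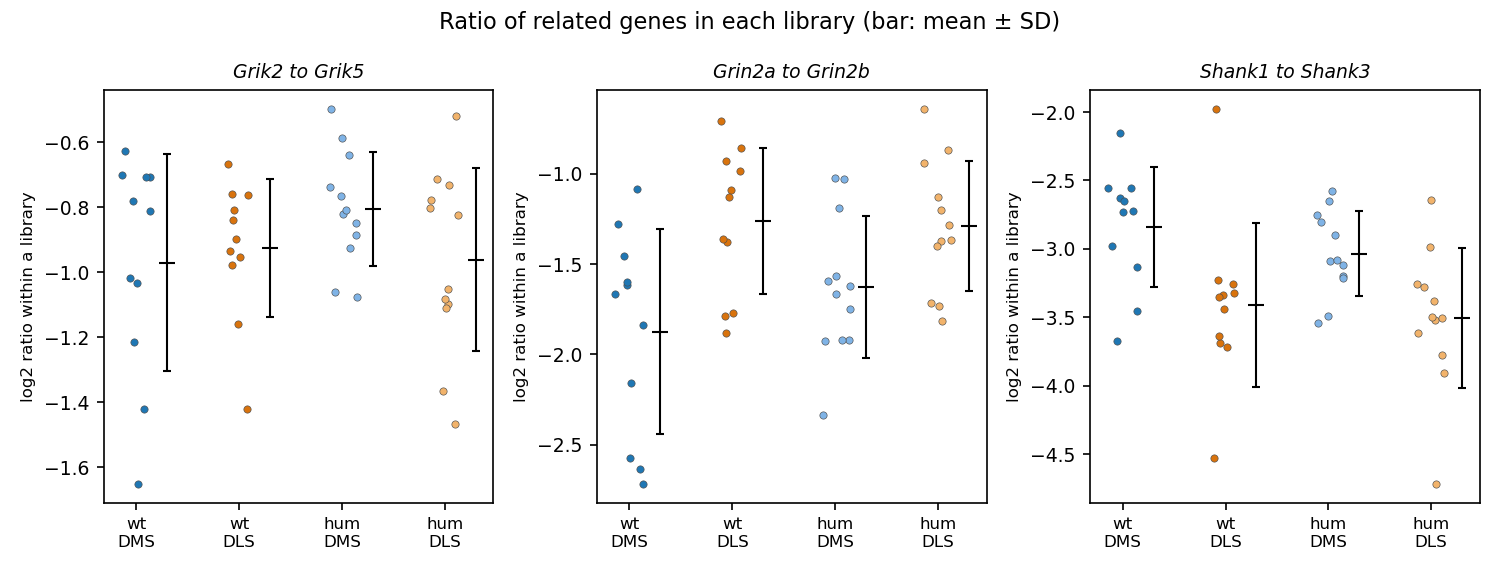
Log2 ratio of 2 related genes in each library, with the mean and SD of each group of 11 or 12 libraries. In each of the plotted ratios, Grik2 to Grik5, Grin2a to Grin2b and Shank1 to Shank3, the groups overlap widely.

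Partner genes of these receptors were read from 4 lists in the same comparison. Of all genes tested, 8.72% were lower and 8.54% higher in wild-type, and 8.82% lower and 9.33% higher in Foxp2hum/hum. The regions stood fully apart for 1.95% of all genes in wild-type and 2.2% in Foxp2hum/hum. Of 14 auxiliary subunits of AMPA and kainate receptors, 5 were lower in DMS in each genotype and 1 was higher in Foxp2hum/hum. Cnih3, a cornichon that slows AMPA receptor deactivation, ran from 38.9 through 67.6 to 123 normalised reads in wild-type DMS and from 194 through 275 to 372 in DLS, with no overlap, nor was there any in Foxp2hum/hum (56.5 to 127 against 143 to 351). Its log2 difference was -1.93 ± 0.16 (adjusted p = 2.68e-13) and -1.53 ± 0.16 (adjusted p = 7.19e-11). Neto2, an auxiliary subunit of kainate receptors, ran from 1253 through 1789 to 2693 in wild-type DMS and from 2410 through 3064 to 4579 in DLS, and did not overlap in Foxp2hum/hum (1257 to 2260 against 2404 to 4021). It differed by -0.85 ± 0.11 (adjusted p = 4.51e-08) and -0.76 ± 0.11 (adjusted p = 1.53e-07), more than the kainate subunits Grik2 and Grik5, although that comparison between genes was not tested. The TARPs Cacng2 (-0.47 and -0.42) and Cacng4 (-0.41 in each genotype) were lower too.

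The other lists moved less or in both directions. Over all genes tested, 17.3% were called in wild-type, 18.1% in Foxp2hum/hum and 31.8% in the average. Of 22 anchoring and signalling partners, 1 was lower in each genotype, Iqsec1, an exchange factor bound to PSD-95 (-0.56 ± 0.15, adjusted p = 0.00672, and -0.59 ± 0.15, adjusted p = 0.00268), and the list's median was -0.07 and -0.05. Averaged over the genotypes Grasp (0.27) was higher and Cnksr2 (-0.30) lower as well, and Grip1 (0.20) was higher, with an overlapping gene at 21.79% of its value. Of 11 extracellular organisers tested, 3 were higher and 2 lower in wild-type and 1 higher and 3 lower in Foxp2hum/hum. The synaptic adhesion genes Lrrtm1 and Lrrtm2 went opposite ways in each genotype, Lrrtm1 at 0.36 and 0.28 and Lrrtm2 at -0.63 and -0.66, but neither was measured apart from the gene that overlaps it: Ctnna2 amounts to 248% of the Lrrtm1 value and Ctnna1 to 196.9% of the Lrrtm2 value. C1ql3, a secreted C1q-like gene, was 1.12 in wild-type (adjusted p = 0.00558) and 0.53 in Foxp2hum/hum (adjusted p = 0.219), and the pentraxin receptor Nptxr was lower in both (-0.46 and -0.56), with Npcd, which overlaps it on the same strand, at 536.7% of its value. Of 6 glutamate transporters 1 was called, Slc17a8, which encodes the vesicular transporter of cholinergic interneurons, at -1.18 ± 0.16 (adjusted p = 7.67e-08) and -0.89 ± 0.15 (adjusted p = 9.34e-06). Chat, the cholinergic marker, was lower beside it by -0.78 and -0.74.

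The comparison of genotypes asked whether the humanised allele altered any of these genes within a region. None was called. Limma called 0 of 39 members and 0% of 19561 genes in DMS, in DLS and averaged over the regions. At an unadjusted p under 0.05 there were 0 members of 700 genes in DMS, 0 of 843 in DLS and 1 of 1679 in the average. EdgeR called 0 genes in each, and DESeq2 called 0 in DMS and 3 in DLS, of which 0 were members.

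The intervals show how large a difference these libraries could have held. They are given for the members with the smallest p, and some others were wider. In DMS Shank1 gave -0.36 (95% interval -1.08 to 0.36) and Grm2 -0.33 (-1.14 to 0.48). In DMS the smallest p on the lower side belonged to Grin1 (-0.23, 95% interval -0.49 to 0.036), Dlgap3 (-0.20, -0.46 to 0.058) and Dlg3 (-0.15, -0.35 to 0.047), each with a limma adjusted p of 0.955. On the higher side were Grin3a (0.15, -0.14 to 0.44), Grik2 (0.078, -0.093 to 0.25) and Gria2 (0.044, -0.14 to 0.23). In DLS the lower side was led by Dlg3 (-0.17, -0.37 to 0.027), Grid1 (-0.19, -0.44 to 0.056) and Grin2a (-0.43, -1.02 to 0.16), each with a limma adjusted p of 0.843. The higher side there was led by Homer3 (0.085), Homer2 (0.086) and Grm8 (0.10). Averaged over the regions, Dlg3, whose protein SAP102 carries NMDA receptors to the synapse, had the smallest p (-0.16 ± 0.07, limma adjusted p = 0.574), followed by Grin1 (-0.18) and Dlgap3 (-0.17). Grik5 gave -0.087 in DMS and -0.012 in DLS.

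Although none passed, most members lay on 1 side. In DMS 34 of 39 (87.2%) and in DLS 32 of 39 (82.1%) were below 0, where 49.9% and 52% of all genes tested were, with a median of -0.10 and -0.075 for the members against 0.00036 and -0.0087 over all genes. All 14 scaffold genes were below 0 in DMS and 12 of 14 in DLS. Averaged over the regions 34 were, against 50.8%. Members share their high and low libraries, so these counts are a description and carry no test. The mitochondrial share was higher in Foxp2hum/hum in each region by the means given above. With that share in the fit 26 and 23 of 39 were below 0 and the medians were -0.025 and -0.015. Without libraries 70 and 72 the counts were 30 and 29, with medians of -0.052 and -0.054. This pair was picked after seeing the data. Both are wild-type and the highest of their group for many members, so leaving them out lowers the wild-type side. With the total without mitochondrial genes 25 were below 0 in DMS and 32 in DLS. The median of all genes was then 0.071 and -0.014. Members minus all genes stayed at -0.10 in DMS and -0.07 in DLS, as with the deposited size factors. The summed medium spiny neuron markers had a median of 115763 in Foxp2hum/hum and 117745 in wild-type DMS, and of 160652 and 171802 in DLS. With those markers in the fit 28 members were below 0 in DMS, with a median of -0.051, and 15 in DLS, with a median of 0.011. Of the partner lists, the signalling partners leaned the same way, 21 of 22 in each region, as did 10 and 12 of 14 auxiliary subunits. Below 0 in DMS and DLS were 9 and 6 of 11 extracellular organisers, and 3 of 6 glutamate transporters in each.

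**Figure D5:**
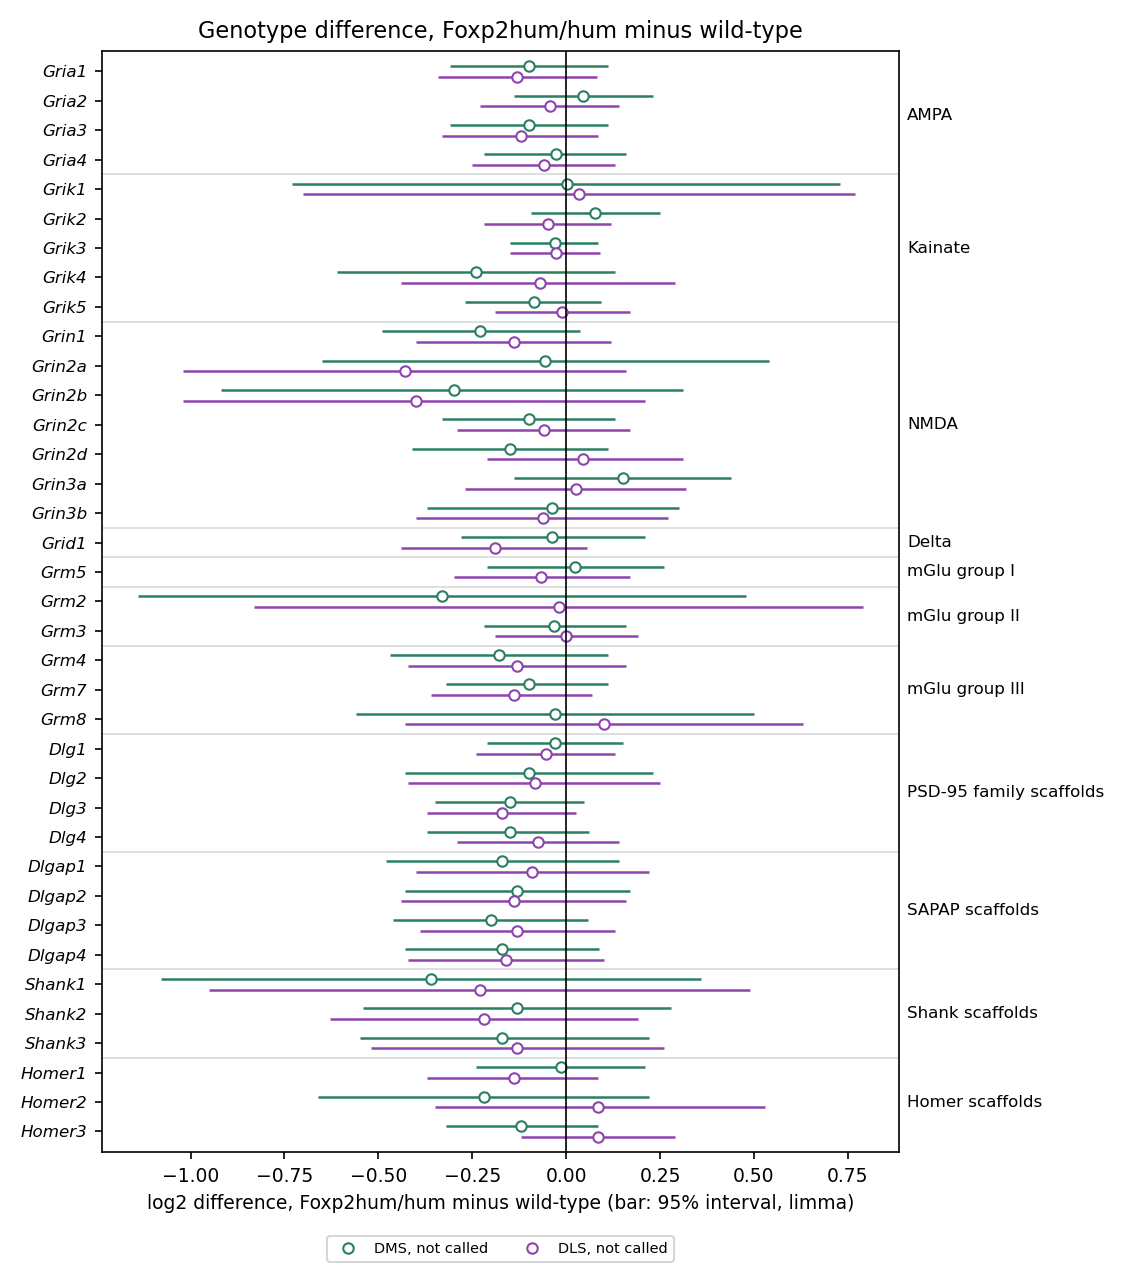
Difference between Foxp2hum/hum and wild-type on the log2 scale for 37 genes, in DMS (green) and DLS (purple), with 95% intervals from limma. No point passed an adjusted p of 0.05, every interval includes 0, and 32 of 37 points in DMS and 31 in DLS lie below 0.

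Within groups the highest and lowest values of many members came from the same few libraries. In wild-type DMS library 72 was the highest of its group for 20 of 39 members (51.3%, against 18.9% of all genes tested), and libraries 34 and 50 were the lowest for 14 (35.9%, against 16.6%) and 12 (30.8%, against 10.6%). Library 70 was the highest in wild-type DLS for 15 members (38.5%, against 15.1%) and library 51 the lowest for 22 (56.4%, against 20.5%). In Foxp2hum/hum DMS library 64 was the lowest for 23 members (59%, against 22.8%). There libraries 84 and 80 were the highest for 14 (35.9%, against 10.8%) and 11 (28.2%, against 12.6%). In Foxp2hum/hum DLS library 94 was the highest for 22 (56.4%, against 20.2%) and library 60 the lowest for 19 (48.7%, against 20.2%). Of those high for the members, the mitochondrial shares were 11.9% in library 72, 18.2% in 70, 21% in 84, 22.1% in 80 and 21.9% in 94. Of those that were low, library 34 had 21.5%, 50 had 26.3%, 51 had 29.3%, 64 had 25.6% and 60 had 28.5%, so that library 34 lay below libraries 94 and 80. Library 27 of Foxp2hum/hum DMS, with a share of 15.6%, was the highest for 2 members. Library 61 of Foxp2hum/hum DLS, with 30.7%, was the lowest for 5. Whether that share accounts for the members' levels was not tested beyond the covariate above. Size factors did not follow the totals in every library. Library 72 had 0.5392 on 18.86 M reads and library 70 0.8162 on 24.89 M, while library 56 of wild-type DMS had 0.9071 on 17.98 M. Of those low for the members, library 51 had 0.5971 on 17.18 M and library 60 0.8641 on 26.89 M. Whether the size factors account for these extremes was not tested.

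The most variable members were Shank1, with a mean coefficient of variation within groups of 62%, Grm2 (61.1%), Grin2b (59.6%), Grin2a (58.3%), Grik1 (51%) and Grm8 (48.4%). Shank1, a postsynaptic scaffold, ran from 129 in library 51 to 1889 in library 70 in wild-type DLS and from 84.5 in library 60 to 1310 in library 94 in Foxp2hum/hum DLS. The least variable was Grik3 (8.62%), followed by Grik2 (14%), Gria2 (14.3%), Grik5 (14.5%) and Dlg1 (14.5%). Grm8 went the other way from most members, with its highest wild-type DMS value, 492, in library 34 and its highest Foxp2hum/hum DMS value, 615, in library 64.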

How the data were processed

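The authors deposited 1 table of normalised read counts, a signal per gene and library made by dividing counts by 1 DESeq size factor per library; the submitters' processing notes name mm9, TopHat 1.4.1, bedtools and DESeq. Whole reads could be recovered from them, since 100% of values lay within 0.01 of a whole multiple of the library's smallest step. The table header assigns all 46 libraries. Any 2 libraries of a group differed by more than counting error (lowest chi-square per degree of freedom 9.84).

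Genes with a mean of at least 10 were fitted on log2(value + 1), which understates changes of low genes, with limma 3.58.1 in R 4.3.3 (4 group means over all 46 libraries, eBayes with a trend, two-sided, Benjamini-Hochberg over 19561 genes). Positions and overlaps come from GENCODE M1 on mm9, and for genes named with values, overlaps of at least 10% of a value are given. Alternatives were other pseudocounts, filters, scalings and covariates, count models on the recovered reads (edgeR 4.0.16, DESeq2 1.42.0), and leaving out each library. The fit was tested on simulated data.

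Members, lists and tests were chosen with earlier results of these data known. Named with values were members called in any comparison, Grik2 and Grik5, the 3 members with the smallest p in each direction for genotype, the highest and lowest of each of the 11 families, untested members, and up to 4 called genes with the smallest p per partner list. Other values were chosen after seeing the data, and so were the genes of overlap. Syndig1 and Frrs1l were not matched in the table. A few items are not reported here, while counts over the members, the marker list and the ratios include them.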

Additional observations from a re-analysis of the deposited data

How the results depend on the processing

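The counts of members called for region moved with the processing, mainly as follows. Members higher in wild-type DMS numbered 0, and 2 under quantile normalisation, 1 with edgeR, 1 with DESeq2, 3 with array weights and 1 with only the compared groups fitted. Of all genes tested, 1671 were higher, and between 1539 and 2356 with these alternatives. Members lower in wild-type DMS numbered 9, and 5 with the total without mitochondrial genes, 12 with array weights and 13 with the mitochondrial share as covariate. Of all genes tested, 1706, 808, 2221 and 2286 were lower in these fits. In Foxp2hum/hum the 2 higher became 0 with the Ttr covariate and 1 with the mitochondrial share as covariate, and the 9 lower became 4 with the total without mitochondrial genes and 14 with the mitochondrial share. Over all genes tested the higher numbered 1825, 1150 and 2369, and the lower 1725, 664 and 2189, in the same order. Averaged over genotypes the 3 higher became 5 under quantile normalisation, 5 with array weights and 0 with Ttr. Of all genes tested, 3233, 3068, 3956 and 1899 were higher in these fits. The 13 lower in the average became 9 with the total without mitochondrial genes and 19 with the mitochondrial share as covariate. Over all genes tested the lower then numbered 2987, 1414 and 3504. With the medium spiny neuron markers in the fit, an alternative chosen after seeing the data, 17, 18 and 20 were higher and 2, 2 and 2 lower in wild-type, Foxp2hum/hum and the average. In the same order, 33.7%, 35.5% and 39.5% of all genes tested were called by that fit. Under it the differences in wild-type, Foxp2hum/hum and the average changed sign for Gria3 (0.238, 0.214, 0.226) and Grin1 (0.485, 0.326, 0.405), in wild-type and the average for Homer1 (0.110, 0.153), in Foxp2hum/hum and the average for Dlg4 (0.097, 0.155), and in the average for Dlg3 (0.465, adjusted p = 0.00125). The cause was not tested. Genotype and interaction counts stayed at 0 under every alternative run.

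Leaving out each library in turn gave 7 to 10 lower and 0 to 3 higher in wild-type, 7 to 10 lower and 1 to 2 higher in Foxp2hum/hum, and 13 to 15 lower and 3 to 4 higher in the average. The members higher in wild-type came to 3 without library 89, 2 without 70 or 50, and 1 without 22, 34, 65, 76 or 93, and those higher in Foxp2hum/hum to 1 without 22, 80 or 84. Counts over all genes in these fits are not given here, so whether such moves are particular to the members was not tested. Ratios passing numbered 1 to 3 in wild-type and 1 to 2 in Foxp2hum/hum. No paired analysis was possible because the library numbers of the groups are all different and the labels tie none to an animal. For the genotype, the intervals given above give the range of differences these libraries allow.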
